A study of Homo sapiens with 6 samples.

Results

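The enzymes that add or remove methyl and acetyl groups on histones were examined in LM3 cells, an established human hepatocellular carcinoma (HCC) cell line, with and without knockdown of ZNF706, a zinc finger protein. Genes were taken by symbol from the families KDM, KMT, SETD, PRMT, KAT, HDAC and SIRT, which gave 68 of the 33007 genes of the deposited table. They comprised 18 KDM, 8 KMT, 9 SETD, 8 PRMT, 7 KAT, 11 HDAC and 7 SIRT genes. RNA-seq covered 3 vector control and 3 stable ZNF706 knockdown samples, all of the same cell line with a genotype given as WT. In the study's methods, knockdown was made by lentiviral delivery of a pLKO.1 short hairpin RNA followed by puromycin selection. Which hairpin the sequenced cells carried, and whether the 3 samples of a group came from separate cultures, was not given in the sources used here, so p-values measure only the spread between these samples. Control libraries held 62684076, 64713764 and 63054445 counts in total and knockdown libraries 68548419, 65861994 and 69057423, so every knockdown library was deeper than every control library.

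Histone lysine methyltransferases (among the KMT and SETD genes) and arginine methyltransferases (PRMT) transfer methyl groups from S-adenosylmethionine. Lysine demethylases (KDM) take methyl groups off again, using either a flavin or iron with 2-oxoglutarate. Lysine acetyltransferases (KAT) use acetyl-CoA, and the acetyl groups are removed by zinc-dependent HDAC enzymes or by NAD-dependent sirtuins (SIRT). Several of these genes, among them members of the KMT2 family, are known to be mutated in liver cancer, and many of the enzymes also modify proteins other than histones.

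The labels were checked first. ZNF706 gave 3211, 3504 and 3357 counts in controls and 2350, 2068 and 2298 after knockdown, and the log2 fold change (log2FC) stood at -0.73 (standard error, SE, 0.050, adjusted p = 3.7e-05). The epithelial keratins KRT18 and KRT8 were abundant, with 271 and 193 FPKM on average in controls. Defining hepatocyte markers were low beside the keratins. ALB reached a mean of 2.63 FPKM in the control and 1.71 FPKM after knockdown, and HNF4A 0.13 and 0.060 FPKM. Some marker genes differed between the groups, where 12.4% of all tested genes were lower and 10.4% higher after knockdown. Of 11 tested hepatocyte and HCC markers 2 were lower after knockdown, SERPINA1 (log2FC -1.47, adjusted p = 0.0034) and APOB (-0.98, adjusted p = 0.021). Of 5 tested fibroblast markers 2 were higher, COL1A1 (0.20, adjusted p = 0.0023), the most abundant, and PDGFRB (0.68, adjusted p = 0.0030), while COL3A1, LUM and DCN stood at -2.04, -1.26 and -0.04 without passing the test, and the median of the list was -0.04. Of the tested endothelial markers CDH5 was lower (-0.70, adjusted p = 0.0014) and PECAM1 stood at 0.15 (adjusted p = 0.54). Summed over each list, fibroblast markers gave 7.90 to 9.41 FPKM in controls and 9.61 to 10.05 FPKM after knockdown, and endothelial markers 1.79 to 2.06 and 1.43 to 1.69 FPKM. Their part in the enzyme results was not tested. Leukocytes were represented by little RNA, since PTPRC had at most 8 counts in any sample and the 4 leukocyte markers present in the table summed to between 0.33 and 0.89 FPKM per sample.

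Of the 68 enzyme genes, 66 had enough counts to be tested. PRMT8 was listed at 0 counts in every sample, which allows up to 3 counts in each, and KDM5D, which lies on the Y chromosome, did not pass the filter. Of the 66 tested genes 24 changed with an adjusted p below 0.05 (36.4%), against 22.8% of all 18390 genes tested. The changes were unevenly split, with 17 genes lower after knockdown (25.8%, against 12.4% of all genes) and 7 higher (10.6%, against 10.4%). Most of these genes are well expressed, with a median of the mean counts of 3105 against 756 over all tested genes. When the filter was a mean count of 50, 25 of 65 enzymes were called (38.5%), against 31.5% of that background. Of these, 17 were lower (26.2%, against 16.6% of that background) and 8 higher (12.3%, against 14.9%). The median log2FC of the 66 genes was -0.03, and that of all tested genes was 0.01. The effects were small. They ran from -0.73 for KDM7A to 0.56 for HDAC6 on the log2 scale, and 15 of the 66 genes (22.7%) met the study's criteria, taken here as an unadjusted p below 0.05 and a log2 change of 0.3 or more in size, against 15.5% of all genes. Of these, 7 were higher (10.6%, against 9.61% of all genes) and 8 lower (12.1%, against 5.88%). Adjusted p-values come from the quasi-likelihood test of edgeR, with the Benjamini-Hochberg method over all 18390 genes, because exact permutation of 3 against 3 samples has 0.1 as its smallest two-sided p. In bulk RNA, fewer cells expressing a gene and less RNA per cell cannot be told apart. Values did not overlap between the groups for 36 of the 66 genes (54.5%), against 39.4% of all genes. The numbers in each direction depended on the scaling, for the enzymes and for all genes. With library size alone in place of TMM scaling, the falls numbered 11 (16.7%, against 8.25% of all genes) and the rises 13 (19.7%, against 14.9%). The median of the enzymes lay 0.04 below that of all genes on the log2 scale with either scaling. Leaving out knockdown replicate 2 left 6 rises (9.09%, against 6.01% of all genes) and 11 falls (16.7%, against 7.85%). With limma on log2(FPKM + 0.1), the share of falls was close to that of all genes, at 8 of 64 enzymes (12.5%, against 11.5%), beside 10 rises (15.6%, against 18.0%).

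**Figure D1:**
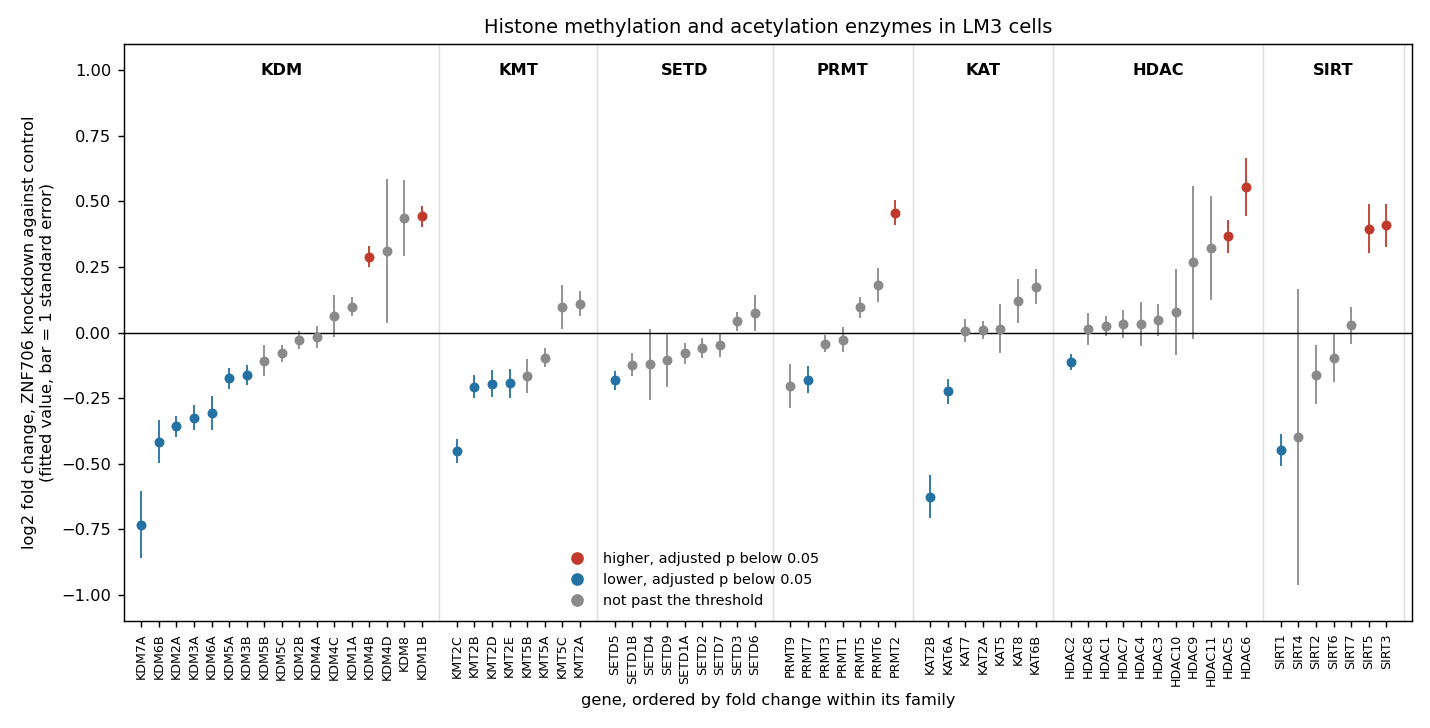
Fitted log2FC of ZNF706 knockdown against control (y axis) for the 66 tested enzyme genes, ordered within their families (x axis), with bars of 1 SE and colours for genes past an adjusted p of 0.05. The 17 falls lie mainly among the KDM and KMT genes, with 7 and 4 respectively, and the 7 rises are spread over the KDM, PRMT, HDAC and SIRT genes.

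The genes with the largest changes were KDM7A and KAT2B, which fell, and HDAC6 and PRMT2, which rose. To show what lies directly before these starts, the 250 bases upstream are given from RefSeq (GRCh38.p14), 5′ to 3′ on the gene's strand, with every match to a searched motif in capitals. The HDAC6 window belongs to the first of several starts listed for that gene and lies inside the gene as the deposited table places it. The PRMT2 window runs past 46635595, where the deposited table starts that gene. Its GC box 51 bases before the RefSeq start lies inside the gene so placed.
HDAC6 (chrX:48801817-48802066, plus strand): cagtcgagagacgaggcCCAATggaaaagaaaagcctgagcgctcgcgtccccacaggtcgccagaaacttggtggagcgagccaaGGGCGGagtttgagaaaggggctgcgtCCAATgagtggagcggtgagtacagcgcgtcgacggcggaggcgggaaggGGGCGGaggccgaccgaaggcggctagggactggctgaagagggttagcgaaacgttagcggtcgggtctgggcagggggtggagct
PRMT2 (chr21:46635424-46635673, plus strand): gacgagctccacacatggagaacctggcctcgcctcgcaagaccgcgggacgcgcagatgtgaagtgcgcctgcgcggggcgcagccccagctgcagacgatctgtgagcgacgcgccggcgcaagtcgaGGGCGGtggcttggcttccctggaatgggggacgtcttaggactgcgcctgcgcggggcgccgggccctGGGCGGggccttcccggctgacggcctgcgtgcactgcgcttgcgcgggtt
KDM7A (chr7:140176984-140177233, minus strand): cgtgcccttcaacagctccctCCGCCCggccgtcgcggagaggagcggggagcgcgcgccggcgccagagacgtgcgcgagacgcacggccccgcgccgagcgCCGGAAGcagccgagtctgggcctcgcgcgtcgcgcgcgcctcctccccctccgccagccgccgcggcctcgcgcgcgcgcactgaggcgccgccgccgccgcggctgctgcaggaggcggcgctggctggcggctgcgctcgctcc
KAT2B (chr3:20040196-20040445, plus strand): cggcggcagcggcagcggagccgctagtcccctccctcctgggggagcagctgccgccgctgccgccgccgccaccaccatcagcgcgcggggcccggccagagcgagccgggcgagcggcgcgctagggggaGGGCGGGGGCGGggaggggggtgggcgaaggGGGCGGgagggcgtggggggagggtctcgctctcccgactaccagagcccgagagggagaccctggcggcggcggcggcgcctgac
The motifs searched on both strands were the E-box (CACGTG), the GC box (GGGCGG), the CCAAT box (CCAAT), the palindromic NRF1 motif, the ETS core (CCGGAAG) and the CRE (TGACGTCA), and none of them contains another. A GC box was present in all 4 windows, in 42.6% of the 35116 promoter windows of the same length and in 61.4% of the 16374 windows that belong to tested genes. KDM7A had a GC box 229 bases and an ETS core 147 bases before its start. In KAT2B a pair of GC boxes lay side by side, beginning 117 and 111 bases before the start, with another 86 bases before it. HDAC6 had GC boxes and CCAAT boxes in turn, and PRMT2 had GC boxes only, at 120 and 51 bases. Over all windows of the enzymes, which covered 63 of the 68 genes, a GC box was found in 8 of 9 windows of genes that rose, 17 of 20 of genes that fell and 34 of 60 of genes that did not pass the test. An E-box was found in 1 of 9, 3 of 20 and 5 of 60 of these windows, against 8.18% of the windows of tested genes. Genes with several starts gave several windows, so these windows are not separate genes. The 8 windows with a GC box among genes that rose came only from HDAC6, SIRT5, KDM1B, KDM4B and PRMT2. Among the 17 of genes that fell, KDM3A and PRMT7 occurred more than once. Such matches describe the letters in a window and do not show that a factor binds there.

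The demethylases, with 17 tested genes the largest family, held the most changes in number, with 7 falls and 2 rises. Of the 8 tested KMT genes 4 fell. Of 15 tested genes of the JmjC type, which use iron and 2-oxoglutarate, 7 fell and 1 rose, with a median log2FC of -0.11. Over all tested genes, 12.4% fell and 10.4% rose. KDM7A (ENSG00000006459, chromosome 7, 140084746 to 140176983, minus strand, GRCh38), which removes repressive lysine methylation, had 14.5, 11.2 and 13.7 CPM in controls and 8.67, 6.92 and 8.10 CPM after knockdown. CPM values here are counts relative to the library size after TMM scaling, whose factors were 0.974 to 0.988 for the controls and 1.01 to 1.02 for the knockdown samples. All 3 knockdown samples lay below all 3 control samples, and the mean fell from 13.1 ± 1.71 to 7.90 ± 0.894 CPM (SD, n = 3), a log2FC of -0.73 (SE 0.13, adjusted p = 0.0030). Both tested KDM6 genes, which encode demethylases of the polycomb mark, fell as well. KDM6B (JMJD3) had 27.5, 29.4 and 33.6 CPM in controls against 22.8, 23.2 and 21.9 CPM after knockdown (log2FC -0.42, SE 0.082, adjusted p = 0.0057). KDM6A (UTX), on the X chromosome, had 45.3, 44.3 and 39.2 CPM against 33.2, 35.6 and 35.3 CPM after knockdown, with a log2FC of -0.31 (SE 0.064, adjusted p = 0.0073). The groups did not overlap for either gene, and limma on FPKM did not call KDM6A (adjusted p = 0.111).

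Among the demethylases of lower methylation states, KDM2A (chromosome 11, 67119263 to 67258082, plus strand), a CpG island binding protein, fell from 159.6 ± 6.99 to 125 ± 2.43 CPM (SD, n = 3). Its samples read 163, 152 and 164 CPM in the control and 125, 127 and 122 CPM in the knockdown group (log2FC -0.36, SE 0.040, adjusted p = 0.00034). KDM3A, a demethylase that is induced by hypoxia, had 108, 109.6 and 100.02 CPM in controls and 88.4, 81.9 and 83.6 CPM after knockdown, and its log2FC was -0.32 (SE 0.046, adjusted p = 0.0011). Smaller falls were found for KDM5A and KDM3B. KDM5A, which removes an activating promoter mark, had 176, 174 and 182 CPM in controls and 164.5, 154 and 153 CPM after knockdown (log2FC -0.17, SE 0.039, adjusted p = 0.011). Similarly, KDM3B, a relative of KDM3A, had 152, 154 and 151 CPM in controls and 142, 132 and 135 CPM after knockdown, a log2FC of -0.16 (SE 0.037, adjusted p = 0.012). These last 2 falls did not pass the threshold without knockdown replicate 2 (adjusted p = 0.061 for KDM5A and 0.067 for KDM3B), nor with library size alone (0.054 and 0.072), the offset for transcript length (0.063 and 0.059) or limma on FPKM (0.055 and 0.060). KDM5A shares its locus with CCDC77 on the opposite strand, which had a mean of 9013 counts against 10952 for KDM5A, and whether the counting used strand was not given in the sources used here.

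A pair of demethylases moved the other way. KDM1B (ENSG00000165097, chromosome 6, 18155329 to 18223854, plus strand), a flavin-dependent demethylase known for its part in setting DNA methylation imprints in oocytes, had 50.8, 50.9 and 48.1 CPM in controls and 67.8, 68.4 and 67.5 CPM after knockdown. The samples of each group were close together and far from the other group, and the log2FC of 0.44 (SE 0.039) had the lowest adjusted p among the 66 enzymes (9.9e-05). KDM4B, a demethylase of heterochromatin marks and a coactivator of steroid receptors, had 44.8, 43.9 and 44.3 CPM against 55.3, 54.7 and 52.6 CPM (log2FC 0.29, SE 0.041, adjusted p = 0.0010). KDM1A (LSD1), the most abundant demethylase with 29.4 ± 0.942 FPKM in controls (SD, n = 3), had a log2FC of 0.10 (SE 0.037, adjusted p = 0.084) and was past the threshold with DESeq2 (adjusted p = 0.034), library size alone (0.013) and limma on FPKM (0.015), while without control replicate 1 it stood at 0.06 (0.27). The other 7 tested KDM genes did not pass the test. Of these, KDM8 was closest, with 190, 215 and 171 counts in controls and 292, 264 and 309 after knockdown (log2FC 0.44, SE 0.15, adjusted p = 0.056). KDM5C (-0.08), KDM5B (-0.11), KDM2B (-0.03), KDM4A (-0.02), KDM4C (0.06) and KDM4D (0.31, SE 0.27) completed the family on the log2 scale.

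Of the 17 genes of the KMT and SETD families, 5 fell, against 12.4% of all tested genes. The other 12 did not pass the test. KMT2C (MLL3; ENSG00000055609, chromosome 7, 152134922 to 152436003, minus strand), which methylates histones at enhancers and is a known tumour suppressor, had 109, 105 and 104 CPM in controls and 82.0, 77.4 and 73.0 CPM after knockdown. Its mean fell from 106 ± 2.43 to 77.5 ± 4.51 CPM (SD, n = 3), a log2FC of -0.45 (SE 0.046, adjusted p = 0.00021). Its partner at enhancers KMT2D (MLL4) had 238, 211 and 224 CPM against 205, 198 and 185 CPM, a log2FC of -0.19 (SE 0.052, adjusted p = 0.024). KMT2B, which acts at promoters, had 54.4, 51.7 and 53.9 CPM against 45.1, 48.2 and 45.5 CPM (log2FC -0.21, SE 0.045, adjusted p = 0.0092). KMT2E, a relative without known methyltransferase activity of its own, had 73.2, 72.3 and 76.3 CPM against 70.7, 61.6 and 61.5 CPM (log2FC -0.19, SE 0.056, adjusted p = 0.034). Thus 4 of the 5 KMT2 genes fell in this fit, of which KMT2C was called in every refit. The exception was KMT2A (MLL1), with 162 ± 3.87 CPM in the control and 175 ± 11.5 CPM after knockdown (SD, n = 3; log2FC 0.11, SE 0.048, adjusted p = 0.13).

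KMT2B did not pass the threshold with the length offset (adjusted p = 0.053) or with limma on FPKM (0.066). The KMT2D call was lost without control replicate 1 (adjusted p = 0.074), control replicate 3 (0.064), knockdown replicate 2 (0.077) or knockdown replicate 3 (0.075). Among the fits that left out 1 sample, KMT2E passed only without knockdown replicate 1, and its adjusted p was 0.065, 0.066 and 0.109 without control replicates 1, 2 and 3, and 0.139 and 0.111 without knockdown replicates 2 and 3. Other settings that ended the KMT2D call were library size alone (0.094), no filter (0.076) and limma on FPKM (0.124). KMT2E was also lost with library size alone (0.114), no filter (0.095), the length offset (0.076), the GC content offset (0.089) and limma on FPKM (0.127). KMT2E overlaps SRPK2, a gene on the opposite strand with a mean of 3241 counts. In the SETD family, SETD5, a broadly expressed regulator with a SET domain, was the most abundant member with 21.9 ± 0.272 FPKM in controls (SD, n = 3). It had 316, 312 and 315 CPM in controls and 289.6, 274 and 267 CPM after knockdown, a log2FC of -0.18 (SE 0.037, adjusted p = 0.0062). SETD2, the enzyme for methylation along gene bodies, stood at -0.06 (SE 0.037), and SETD1A and SETD1B, the catalytic subunits of COMPASS complexes that act at most active promoters, at -0.08 and -0.12 (adjusted p = 0.18 and 0.071). Values for SETD3, SETD4, SETD6, SETD7 and SETD9 lay between -0.12 and 0.07. KMT5A, KMT5B and KMT5C, which methylate histone H4, had log2FCs of -0.10, -0.17 and 0.10, none past the threshold. KMT5A was the most abundant KMT gene, with 18.2 ± 0.0513 FPKM in the control and 17.6 ± 0.567 FPKM after knockdown (SD, n = 3).

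Among the arginine methyltransferases PRMT2 (ENSG00000160310, chromosome 21, 46635595 to 46665117, plus strand), which carries an SH3 domain and interacts with nuclear receptors, had 37.8, 35.3 and 38.4 CPM in controls and 50.8, 50.2 and 52.1 CPM after knockdown. The groups stood well apart, and the log2FC was 0.46 (SE 0.048, adjusted p = 0.00026). PRMT7, which makes monomethylarginine, had 38.2, 40.4 and 40.0 CPM against 36.1, 33.7 and 34.9 CPM (log2FC -0.18, SE 0.051, adjusted p = 0.031). PRMT5, the main enzyme for symmetric dimethylarginine, had the highest level of all 68 genes, with 41.2 ± 1.62 FPKM in the control and 45.6 ± 0.973 FPKM after knockdown (SD, n = 3). Its log2FC of 0.10 (SE 0.041, adjusted p = 0.12) passed the threshold only when the counts were scaled by library size (0.020) or the FPKM values were used (0.025). PRMT1, the main enzyme for asymmetric dimethylarginine, stood at -0.03 (SE 0.048), PRMT3 at -0.04, PRMT6 at 0.18 (adjusted p = 0.070) and PRMT9 at -0.20 (adjusted p = 0.11). The PRMT7 fall was lost without control replicate 2 (adjusted p = 0.106) or 3 (0.087), without knockdown replicate 2 (0.130) or 3 (0.076), and with library size alone (0.112), the length offset (0.055) or limma on FPKM (0.115).

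Of the 7 acetyltransferases 2 fell, against 12.4% of all tested genes. KAT2B (PCAF; ENSG00000114166, chromosome 3, 20040446 to 20154404, plus strand), a coactivator that acetylates histones and transcription factors, had 18.1, 19.3 and 18.4 CPM in controls and 11.3, 12.4 and 12.5 CPM after knockdown. Each group was tight and the gap between them was wide, with means of 18.6 ± 0.644 and 12.1 ± 0.642 CPM (SD, n = 3), a log2FC of -0.63 (SE 0.082, adjusted p = 0.00072). Expression thus fell by 35.2%. Its close relative KAT2A (GCN5), the most abundant of the family with 23.7 ± 0.422 FPKM in the control and 24.6 ± 0.462 FPKM after knockdown (SD, n = 3), had a log2FC of 0.01 (SE 0.035, adjusted p = 0.90). KAT6A (MOZ), which is rearranged in some leukaemias, had 83.9, 74.7 and 76.6 CPM against 67.2, 68.2 and 66.0 CPM (log2FC -0.22, SE 0.047, adjusted p = 0.0079). KAT6A was not called by limma on FPKM (adjusted p = 0.109). KAT6B, its paralog, stood at 0.17 (SE 0.067, adjusted p = 0.093). KAT5 (TIP60) at 0.01, KAT7 (HBO1) at 0.01 and KAT8 (MOF) at 0.12 on the log2 scale did not pass the test.

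Of the 11 zinc-dependent deacetylases, 2 rose and 1 fell, numbers close to the shares over all genes (10.4% higher and 12.4% lower). HDAC6 (ENSG00000094631, chromosome X, 48801377 to 48824976, plus strand), a mainly cytoplasmic enzyme that deacetylates tubulin, had 10.9, 9.80 and 12.2 CPM in controls and 14.8, 15.6 and 17.9 CPM after knockdown. All knockdown values were above all control values, and the log2FC was 0.56 (SE 0.11, adjusted p = 0.0060). HDAC5, a class IIa enzyme that shuttles between nucleus and cytoplasm, had 25.6, 27.2 and 29.1 CPM against 34.5, 35.3 and 35.8 CPM (log2FC 0.37, SE 0.062, adjusted p = 0.0027). HDAC2, a class I subunit of the nuclear corepressor complexes, had raw counts of 15161, 15142 and 14942 in controls and 15821, 14961 and 15659 in the deeper knockdown samples. After scaling these were 245, 238 and 243 CPM against 226, 223 and 224 CPM, the smallest change among the 24 called genes (log2FC -0.11, SE 0.031, adjusted p = 0.026). HDAC2 did not pass the threshold with library size alone (adjusted p = 0.22), nor without control replicates 1 (0.0705) or 3 (0.068) or knockdown replicates 2 (0.108) or 3 (0.056). Its log2FC was -0.04 with the length offset (adjusted p = 0.43) and -0.02 with a GC content offset (0.62), and limma on FPKM did not call it (0.18). HDAC1, the partner of HDAC2 and the most abundant HDAC gene with 32.1 ± 1.17 FPKM in the control and 33.8 ± 0.599 FPKM after knockdown (SD, n = 3), stood at 0.02 (SE 0.037, adjusted p = 0.69). HDAC3, HDAC4, HDAC7, HDAC8 and HDAC10 lay between 0.01 and 0.08. HDAC9 and HDAC11, both with at most 262 counts in any sample, had log2FCs of 0.27 (SE 0.29) and 0.32 (SE 0.20).

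The sirtuins moved in both directions. SIRT1 (ENSG00000096717, chromosome 10, 67884656 to 67918390, plus strand), the nuclear NAD-dependent deacetylase, had 51.0, 48.9 and 57.4 CPM in controls and 39.0, 37.8 and 38.5 CPM after knockdown. It was also the most abundant sirtuin, with 9.90 FPKM on average in controls. Its log2FC was -0.45 (SE 0.060, adjusted p = 0.00084), a fall by 26.7%, and every knockdown sample lay below every control sample. The sirtuins of the mitochondrial matrix that could be measured well rose. SIRT3, the main mitochondrial deacetylase, had 16.8, 17.0 and 15.4 CPM against 23.4, 21.1 and 20.7 CPM (log2FC 0.41, SE 0.082, adjusted p = 0.0061). SIRT5, which removes succinyl and malonyl groups, had 15.5, 16.7 and 14.6 CPM against 18.6, 22.5 and 20.5 CPM (log2FC 0.40, SE 0.094, adjusted p = 0.014). SIRT4, the other member in mitochondria, had only 9 to 46 counts per sample and overlapped between the groups. SIRT2, SIRT6 and SIRT7 stood at -0.16, -0.10 and 0.03, none past the threshold. The SIRT5 rise was lost without control replicate 3 (adjusted p = 0.052) or without knockdown replicate 2 (0.063), and SIRT3 overlaps RIC8A, a gene on the opposite strand with a mean of 10564 counts against 1262 for SIRT3.

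**Figure D2:**
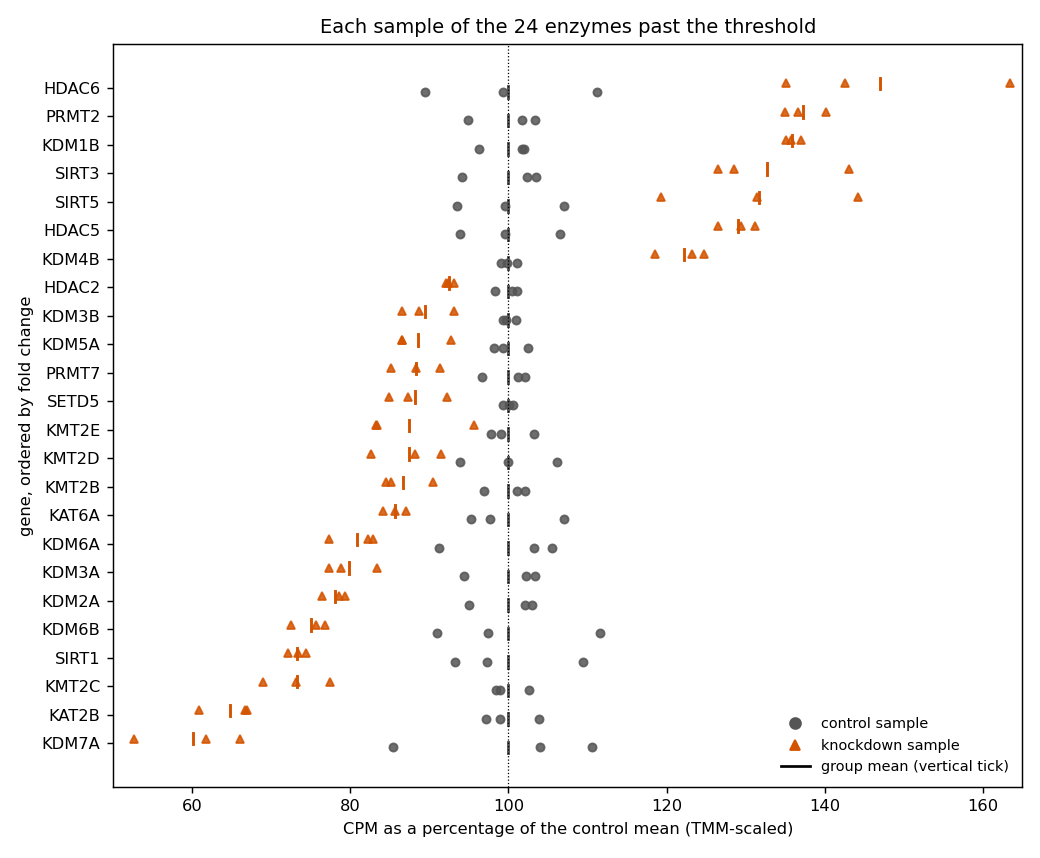
CPM of every sample as a percentage of the gene's control mean (x axis) for the 24 enzymes past the threshold (y axis), with control samples as circles, knockdown samples as triangles and group means as ticks. Control and knockdown samples are separate for each of the 24 genes, and the group means are furthest apart for HDAC6 and KDM7A.

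How the calls held up was counted over 18 refits of the whole table, which changed the scaling, the filter, the tool, the unit, the treatment of length and GC content, or left out 1 sample. Called in the same direction in all 18 refits were 14 of the 24 enzymes. The same count was not made over all called genes, so it has no reference and describes single genes only. The 14 were the 6 rises of HDAC5, HDAC6, KDM1B, KDM4B, PRMT2 and SIRT3, and the 8 falls of KAT2B, KDM2A, KDM3A, KDM6B, KDM7A, KMT2C, SETD5 and SIRT1. The remaining falls were between -0.31 and -0.11 on the log2 scale. The refits do not include the study's criteria, whose minimum fold KDM4B and SETD5 did not reach.

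Because the ratio of counts of a pair of genes within a library does not depend on how libraries are scaled, related enzymes were compared in this way for 15 pairs, which were chosen after their values were seen. For 11 of the 15 pairs the ratios did not overlap between the groups (p = 0.1 by exact two-sided permutation, the smallest possible, before any adjustment over the 15 pairs). Because of how the pairs were chosen this count has no reference, and 39.4% of single genes did not overlap either. The KAT2B to KAT2A ratio was 0.179, 0.183 and 0.177 in controls and 0.107, 0.120 and 0.121 after knockdown, a log2 difference of -0.64. KDM1B stood at 0.287, 0.271 and 0.251 of KDM1A in controls and at 0.339, 0.343 and 0.342 after knockdown, a log2 difference of 0.34. In both pairs the same gene had more counts in every sample, while the proportions differed between the groups. For KDM2A over KDM2B the ratio was 2.03, 1.85 and 2.01 in controls and 1.57, 1.56 and 1.56 after knockdown. KMT2C had 0.456, 0.496 and 0.464 of the counts of KMT2D in controls and 0.399, 0.391 and 0.394 after knockdown. The KAT6A to KAT6B ratio was lower in every knockdown sample than in any control sample, a log2 difference of -0.40. No such separation was seen for KDM6A over KDM6B, with 1.44 ± 0.249 and 1.53 ± 0.0798 (SD, n = 3; p = 0.8 by exact two-sided permutation), nor for SETD1A over SETD1B, KDM5A over KDM5C or SIRT1 over SIRT2.

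**Figure D3:**
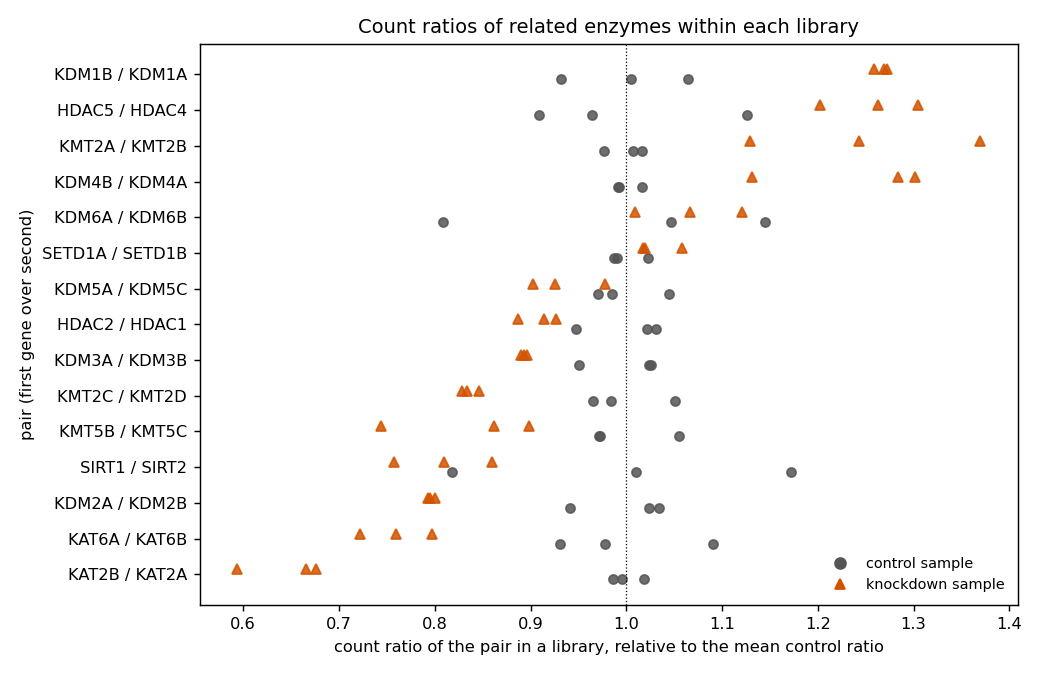
Ratio of the counts of a pair of related enzymes within each library, relative to the mean control ratio of the pair (x axis), for 15 pairs (y axis), with control samples as circles and knockdown samples as triangles. The ratios of 11 pairs are separate between the groups, with KAT2B over KAT2A lowest and KDM1B over KDM1A highest on average after knockdown.

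Transcript length moved with the fold changes. Over all tested genes, the share of genes lower after knockdown was 5.34% for a longest transcript of 1000 and up to 2000 bases, 12.9% from 2000 up to 4000 bases and 22.7% from 8000 bases on, and the median log2FC went from 0.07 to 0.02 and -0.06 in these classes. The enzymes are encoded by long transcripts, with a median of 4784 bases against 2933 bases for all tested genes. The 17 genes that fell had a median length of 6967 bases (4094 to 19419), the 7 that rose 4382 bases (2627 to 5703), and the 42 others 3487 bases. Within the class of 8000 bases and over, 8 of 16 enzymes fell and the other 8 did not pass the test. From 4000 up to 8000 bases, 9 of 26 fell and 5 rose, against 19.6% lower and 11.5% higher of all genes of that class. Of the 24 enzymes under 4000 bases, 2 rose and 22 did not pass the test, where 10.7% of all genes from 1000 up to 2000 bases and 12.5% from 2000 up to 4000 bases were higher. When each library's trend on length was removed with the TMM scaling kept, 11 enzymes fell (16.7%, against 11.6% of all genes) and 9 rose (13.6%, against 11.4%), and the median log2FC was 0.01 both for the 66 genes and for all genes.

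**Figure D4:**
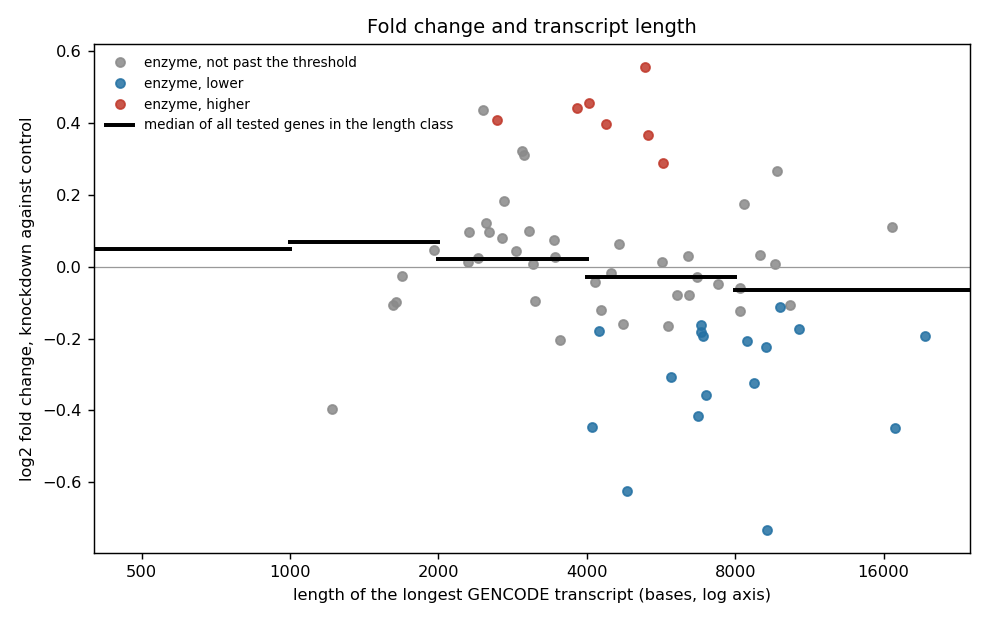
Log2FC of knockdown against control (y axis) of the 66 tested enzymes against the length of the longest GENCODE transcript on a log axis (x axis), with black lines for the median of all tested genes in 5 length classes. The genes that fell (blue) lie at 4094 bases or longer, and the black lines go from 0.05 in the shortest class to -0.06 in the longest.

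The partners of these enzymes and the genes that supply their cofactors were read from 7 further lists. Together, 130 of these genes were tested, 41 were lower and 14 higher (42.3% called, against 22.8% of all genes), with a median log2FC of -0.06. The excess over all genes lay in the falls, with 41 of 130 against 12.4%, whereas 14 of 130 rises were close to the 10.4% of all genes. With the filter of a mean count of 50, there were 41 falls and 14 rises, against 16.6% lower and 14.9% higher of that background. With the length offset 30 of 130 fell and 15 rose, against 11.6% and 11.4% of all genes. By the study's criteria 10 of 130 fell and 5 rose, against 5.88% and 9.61% of all genes. The falls were thus closer to the share of all genes under those criteria, and the rises lay below it. Among other histone methyltransferases, 8 of 20 fell and 2 rose. DOT1L, which methylates the histone core, fell by 0.46 on the log2 scale (from 11.6 to 8.67 FPKM on average), SETMAR by 0.45, NSD3 by 0.38 and ASH1L by 0.29, whereas EHMT2 (G9a), an enzyme for repressive methylation, rose by 0.31 and CARM1, an arginine methyltransferase, by 0.19. Polycomb and COMPASS partners had 7 of 16 genes lower and 2 higher. NCOA6 (-0.32) and PAXIP1 (-0.31), which belong to the complexes of KMT2C and KMT2D, fell most, followed by the polycomb subunit SUZ12 (-0.23) and the COMPASS core subunit RBBP5 (-0.19). MEN1 (0.24), a subunit of the KMT2A and KMT2B complexes, and DPY30 (0.18) rose. Of 7 other demethylases 3 fell, with JMJD6 at -0.52, PHF8 at -0.32 and PHF2 at -0.20.

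Of 35 other acetyltransferases and their partners, 10 fell and 3 rose, where 12.4% of all tested genes fell and 10.4% rose. BRPF3 (-0.33), NCOA1 (-0.25), MSL1 (-0.25) and NCOA3 (-0.23) fell most, and KAT14, an acetyltransferase whose symbol has 2 digits and lies outside the family rule, rose from 0.927 to 1.57 FPKM on average (log2FC 0.72, SE 0.12, adjusted p = 0.0030). KANSL2 (0.17) and JADE2 (0.12) were the other rises. The deacetylase complexes had 5 of 25 partners lower, led by the methyl-CpG binding protein MBD2 (-0.36), MIDEAS (-0.19), SUDS3 (-0.18) and TBL1X (-0.18), and 1 higher, the NuRD ATPase CHD3 (0.14). Readers of these marks were split. BRD2 (-0.27) and BPTF (-0.16) fell, and the heterochromatin proteins CBX5 (0.41) and CBX1 (0.17) rose, with 14872, 14011 and 13845 counts of CBX5 in controls and 22041, 20513 and 20193 after knockdown.

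The 17 tested genes of cofactor supply had 5 falls and 4 rises, against 12.4% lower and 10.4% higher of all tested genes. NMNAT1, which makes NAD in the nucleus, rose by 0.54 on the log2 scale, from 303, 397 and 284 to 523, 490 and 575 counts, while NMNAT2 (-0.31) and NAMPT (-0.15), the rate-limiting enzyme of NAD salvage, fell. For 2-oxoglutarate, the cytosolic isocitrate dehydrogenase IDH1 rose (0.31) and the mitochondrial enzymes IDH2 (-0.29) and IDH3A (-0.28) fell. AHCY, which clears the methylation product S-adenosylhomocysteine, rose (0.22), as did ACLY (0.15), a source of acetyl-CoA outside mitochondria, and NNMT (-0.20), a consumer of S-adenosylmethionine, fell. The total of 14 rises was 8 without control replicate 1 or without knockdown replicate 2 and 9 without knockdown replicate 3, and the 41 falls were 27 without knockdown replicate 2. Over all genes, the share called higher went from 10.4% to 7.74%, 6.01% and 7.52% in these refits, respectively. The share called lower went from 12.4% to 7.85% without knockdown replicate 2.

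**Figure D5:**
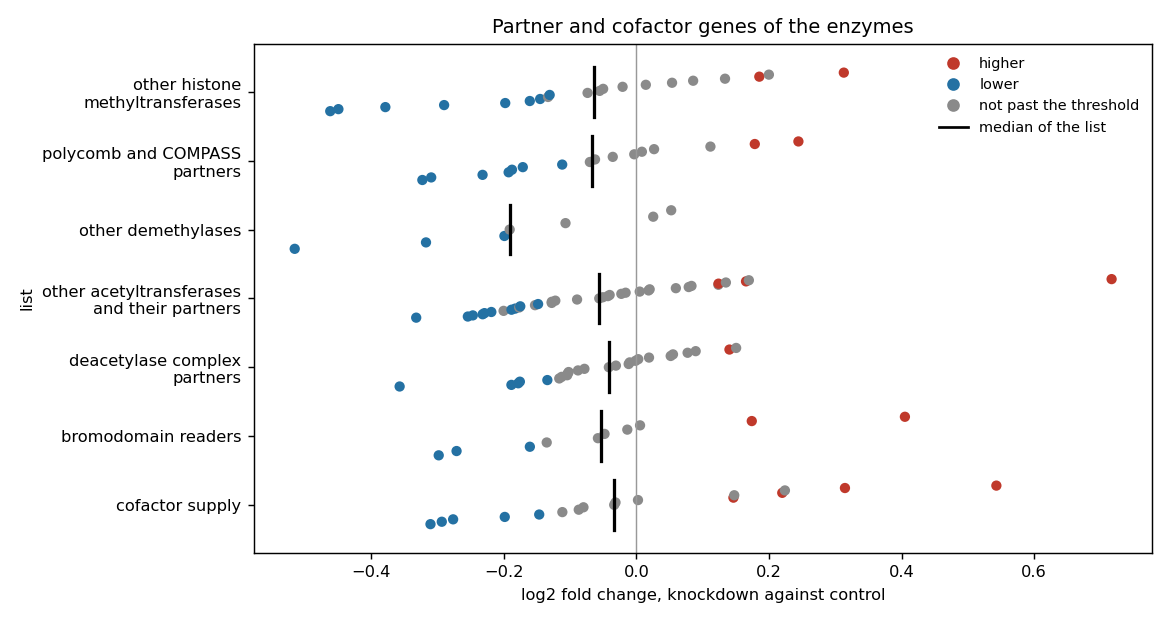
Log2FC of knockdown against control (x axis) for the tested genes of 7 lists of partners and cofactor genes (y axis), with colours for genes past an adjusted p of 0.05 and a black line for the median of each list. The medians lie between -0.19 for other demethylases and -0.03 for cofactor supply, and the highest point is KAT14 at 0.72.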

How the data were processed

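RNA-seq of LM3 cells was analysed in 3 control and 3 ZNF706 knockdown samples. Per the labels and the study's methods, reads were trimmed with cutadapt 1.9, checked with FastQC and mapped to GRCh38 with HISAT2. The counting program, strand handling and annotation release are not given in the sources used here. The authors deposited raw counts per gene, whole numbers without normalization, and FPKM values scaled to gene length and library size. From these counts, edgeR 4.0.16 (R 4.3.3) kept 18390 genes by filterByExpr, applied TMM factors and ran its quasi-likelihood test (glmQLFit, glmQLFTest) with group as the only term, followed by Benjamini-Hochberg adjustment. Each SE was derived from the fitted change and its F value. The fit was also run on simulated data, and no conclusion here rests on that run. Total counts were 62684076 to 69057423 per sample, and floors of 3 counts cover counting error only. Chi-square values between samples of a group were 12.8 to 22.2 per gene, so each sample was counted as a separate library.

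The families, lists and tests were chosen with earlier results of these data known. Values were given for each sample for enzymes past the threshold whose groups did not overlap, at most 12 rises and 12 falls by size, to which the other called falls were added after their values were seen, and levels for the most abundant enzyme of each family. From each further list at most 4 rises and 4 falls were named, and NAMPT was added after its value was seen. No level of a Y-linked gene is given, and some genes of the lists are not reported here. Lengths and GC content are those of the longest transcript in GENCODE release 29, with all 68 enzymes matched, and 99.88% of the 32092 shared genes overlapped their GENCODE position. Overlapping genes are named for called enzymes where they had at least 10% of the enzyme's counts. Alternatives were DESeq2 1.42.0, its size factors in edgeR, library size alone, no filter, a minimum mean count of 50, a replicate block, a length offset, samples left out in turn, the study's criteria with an unadjusted p, and limma 3.58.1 on log2(FPKM + 0.1) or log2(FPKM + 1) at a mean FPKM of at least 0.5. A GC content offset was added after seeing the data.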

Additional observations from a re-analysis of the deposited data

How the results depend on the processing

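Against 7 rises and 17 falls of enzymes, library size alone gave 13 and 11. The falls were 11 with the gene length offset, with or without the replicate block, and 8 by the study's criteria. With limma on log2(FPKM + 0.1) there were 8 falls, and on log2(FPKM + 1) there were 11 rises (17.2%, against 18.1% of all genes) and 8 falls (12.5%, against 11.5%). Leaving out a sample gave 6 to 7 rises and 11 to 17 falls, with 6.01% to 7.79% of all genes higher and 7.85% to 10.2% lower. The median log2 fold change of the enzymes was 0.027 with library size alone, 0.0091 with the length offset (0.0088 with the block) and 0.021 and 0.019 with limma at the lower and higher pseudocount, and -0.039 to -0.018 with samples left out. Library size alone moved the median of all tested genes from 0.0095 to 0.063. For the partner and cofactor genes, the 14 rises were 9 without a filter, where 1253 of 31319 genes were higher. By the study's criteria these genes had 5 rises and 10 falls, against 9.61% higher and 5.88% lower of all genes. Their 41 falls were 25 with library size alone (against 8.25% of all genes) and 24 with limma at either pseudocount (against 11.5%). With samples left out they ranged from 8 to 12 rises and from 27 to 35 falls. KAT2A, at 0.01, was -0.054 with the GC content offset, with or without the block, and between -0.012 (without control replicate 1) and 0.021 with samples left out, with -0.0047 without knockdown replicate 1. The study's criteria change the p, left unadjusted, and the fold at once, so that KDM8 is gained and KDM4B is lost under them, as are the falls of HDAC2, KAT6A, KDM3B, KDM5A, KMT2B, KMT2D, KMT2E, PRMT7 and SETD5. The cause of the other shifts was not tested. 

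Same-numbered samples of the groups showed no clear shared deviation from their group means, with correlations of 0.027, -0.028 and 0.029. This does not tell whether the samples were prepared in pairs, which was not given in the sources used here. With the replicate block, 7 enzymes rose and 16 fell, the lost fall being PRMT7 (adjusted p = 0.0505 from edgeR). The largest standard errors were those of SIRT4 (0.56), HDAC9 (0.29), KDM4D (0.27) and HDAC11 (0.20), which had low counts.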
